A study of Mus musculus with 4 samples.

Results

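Lymphocyte transcripts were followed in mouse liver through 10 genes: Ighm, Jchain, Cd79a, Cd79b and Blnk of B and plasma cells, and Cd3e, Cd3g, Themis, Nkg7 and Gzma of T and cytotoxic cells. They were chosen by gene name, as every probe set (a group of short probes that reads 1 transcript) whose single gene symbol was one of these names. They had 23 of the 45037 probe sets and were 10 of 18193 named genes. Liver RNA of male mice was hybridised to 4 Affymetrix arrays, 1 for each group. The groups were wild-type (WT) mice on chow with 10% of calories from fat, LASS2-/- mice on that chow, WT mice on a high-fat diet (HFD) with 60% of calories from fat, and LASS2-/- mice on HFD. The diets began at 3 weeks of age. The labels used here give no strain, no age at sampling and no account of how the LASS2 allele was made. They also leave unsaid whether RNA of several mice was pooled for an array. With 1 array a group, the spread between animals is unknown, and a difference between arrays could be one between single animals. Lass2 is the former name of Cers2, a ceramide synthase.

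B cells carry a receptor made of membrane immunoglobulin and the signalling pair Cd79a and Cd79b. Plasma cells secrete immunoglobulin, and IgM and IgA are joined into polymers by the J chain. T cells read antigen through a T cell receptor whose signalling chains form the Cd3 complex, while cytotoxic T cells and natural killer cells store granzymes in granules. In liver these cells lie mainly in the sinusoids and portal tracts, among far more numerous hepatocytes and beside resident macrophages, the Kupffer cells.

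The targeted gene and the tissue were checked first. Cers2 had log2 signals of 12.46 on the WT chow array, 12.32 on the LASS2-/- chow array, 12.25 on the WT HFD array and 12.32 on the LASS2-/- HFD array. The genotype ratio of Cers2 was thus -0.15 log2 on chow and 0.07 on HFD, so the gene was lower on only 1 of the arrays labelled LASS2-/-. The position of its single probe set on the transcript was not determined. Every genotype direction given here rests on the labels, and LASS2-/- names the arrays so labelled. The 7 hepatocyte markers that entered lay between 14.92 and 15.77 on every array. A gene entered when 1 of its probe sets reached the array median (6.17, 6.28, 6.19 and 6.19 log2, in the group order given) on at least 1 array, as 12493 genes did. Of the 10 lymphocyte genes 8 entered, and 4 of these (Ighm, Jchain, Blnk and Themis) had a probe set at or above the median on all 4 arrays. In whole liver, fewer cells of a type and less RNA per cell cannot be told apart.

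Promoters are shown for Blnk, the B cell gene that passed a test, and for Jchain, whose signal followed that of Ighm, because immunoglobulin promoters are known for an octamer that binds Oct proteins. RefSeq windows (GRCm38.p6) from 250 bases before to 50 bases after the annotated start were found for 8 of the 10 genes, 9 windows in all. No window was matched to Ighm or Cd79b. The windows of Blnk (chr19:40994172-40994471, minus strand) and Jchain (chr5:88527848-88528147, minus strand) are given 5′ to 3′ in the direction of transcription, and capitals mark the octamer ATTTGCAT.
Blnk: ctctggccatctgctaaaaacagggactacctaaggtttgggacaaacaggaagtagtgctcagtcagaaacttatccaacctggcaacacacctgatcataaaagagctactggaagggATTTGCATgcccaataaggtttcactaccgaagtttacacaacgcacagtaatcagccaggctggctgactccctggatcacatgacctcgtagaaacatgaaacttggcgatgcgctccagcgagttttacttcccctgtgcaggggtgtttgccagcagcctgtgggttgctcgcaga
Jchain: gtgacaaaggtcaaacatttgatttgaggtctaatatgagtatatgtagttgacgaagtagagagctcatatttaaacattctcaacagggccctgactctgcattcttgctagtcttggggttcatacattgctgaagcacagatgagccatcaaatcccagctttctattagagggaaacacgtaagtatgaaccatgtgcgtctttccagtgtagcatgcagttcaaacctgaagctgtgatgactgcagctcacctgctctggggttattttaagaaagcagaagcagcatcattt
Both strands were searched, as ATTTGCAT and its reverse complement ATGCAAAT. The octamer stood in 1 of the 9 windows, that of Blnk, where its first base lies 130 bases before the start. Of all 32851 windows of this length in the table, 570 (1.74%) held it. A match is a description of the letters and no binding was measured.

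**Figure D1:**
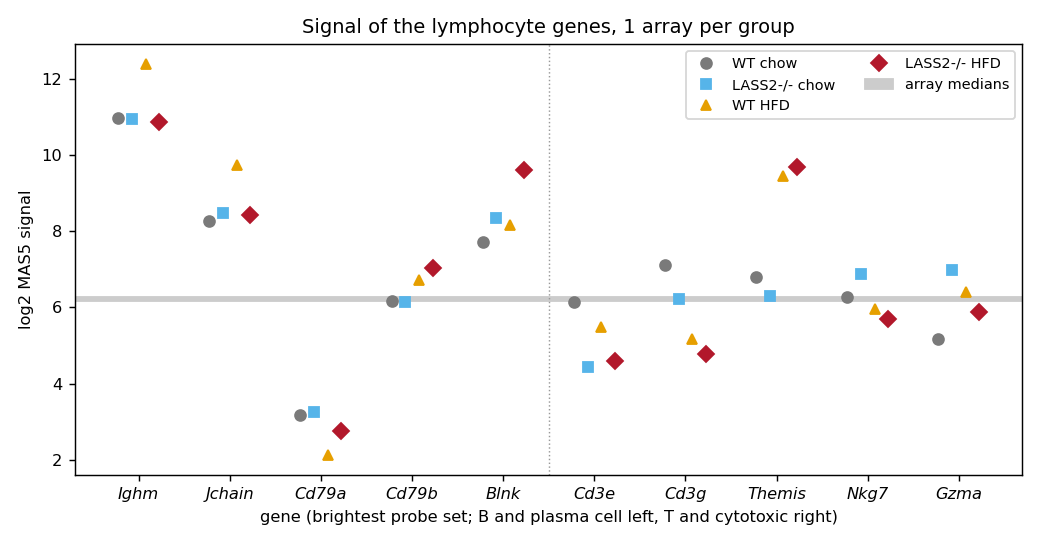
Log2 MAS5 signal of each gene on the 4 arrays (grey circle WT chow, blue square LASS2-/- chow, yellow triangle WT HFD, red diamond LASS2-/- HFD), for the brightest probe set of each gene; the grey band marks the array medians. Ighm and Jchain are highest on the WT HFD array, Blnk on the LASS2-/- HFD array, Themis is high on both HFD arrays, and Cd79a and Cd3e lie under the medians on all 4.

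Immunoglobulin M and J chain transcripts were high on 1 array, that of WT mice on HFD. Ighm (chr12:113418826-113422730, GRCm38.p6), the constant region of the IgM heavy chain, had log2 signals of 10.96 on WT chow, 10.95 on LASS2-/- chow, 12.41 on WT HFD and 10.87 on LASS2-/- HFD in its brightest probe set, 1427351_s_at. Both chow arrays and the LASS2-/- HFD array lay close together, and the WT HFD array stood above them. Jchain (chr5:88519809-88527897), which links IgM and IgA into polymers, had 8.28, 8.47, 9.73 and 8.43 on the same arrays. The order was of the same kind, with the WT HFD array highest and the others near each other.

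With HFD in WT mice, Ighm was 2.72-fold higher (log2 1.44) and Jchain 2.73-fold higher (log2 1.45). In LASS2-/- mice the same diet comparison gave log2 ratios near 0, of -0.08 for Ighm and -0.05 for Jchain, whose signs turned with arrays scaled to equal medians (0.0046 and 0.039). On HFD, the LASS2-/- array was 2.91-fold lower than WT for Ighm (log2 -1.54), a ratio that 6 of 12493 genes exceeded downwards, and 2.47-fold lower for Jchain (log2 -1.30), which 15 exceeded. On chow the genotype ratios were -0.02 for Ighm and 0.19 for Jchain. The HFD genotype ratio and the WT diet ratio share the WT HFD array, so they are not separate evidence. The genotype ratio differed between the diets by -1.52 log2 for Ighm and by -1.50 for Jchain, and 0.897% and 0.993% of all genes had a difference at least as large. This difference has no test, since with 4 arrays it is itself the error of the fit.

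Mean effects over all 4 arrays were tested with limma on an additive model of diet and genotype, over all 12493 genes, with Benjamini-Hochberg adjustment. This model leaves 1 residual degree of freedom, and the error comes mostly from other genes of like signal. Neither gene passed. The mean genotype effect of Ighm was -0.78 ± 0.23 log2 (SE, limma adjusted p = 0.18) and that of Jchain -0.55 ± 0.27 (limma adjusted p = 0.508). The mean diet effects were 0.68 ± 0.23 for Ighm (limma adjusted p = 0.0775) and 0.70 ± 0.27 for Jchain (limma adjusted p = 0.114). For both genes the residual SD of the gene itself, 0.761 and 0.748 log2, was larger than the moderated 0.231 and 0.266 on which these errors rest.

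The probe sets of Ighm differed among themselves. Of its 11 probe sets, 5 reached the medians on all 4 arrays, and 4 of these 5 were highest on the WT HFD array. Probe set 1427329_a_at read 8.69, 9.02, 10.57 and 9.20, and 1425385_a_at read 7.38, 8.34, 9.42 and 7.81, in the order WT chow, LASS2-/- chow, WT HFD, LASS2-/- HFD. These 2 and the brightest were at least 2-fold higher on HFD in WT mice and at least 2-fold lower in LASS2-/- on HFD, and 0 of the 5 were 2-fold apart between genotypes on chow. Probe set 1425247_a_at was also highest on WT HFD but over a narrow range, with 7.001, 6.98, 7.23 and 6.47. Probe set 1427870_x_at read 7.28, 8.06, 8.10 and 8.15, low on WT chow and level on the other arrays. The other 6 probe sets stayed under the medians, between 2.08 and 6.15. On the average of all 11 probe sets, dim ones included, Ighm was no longer 2-fold apart, with a log2 ratio of 0.43 for diet in WT and -0.22 for genotype on HFD.

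**Figure D2:**
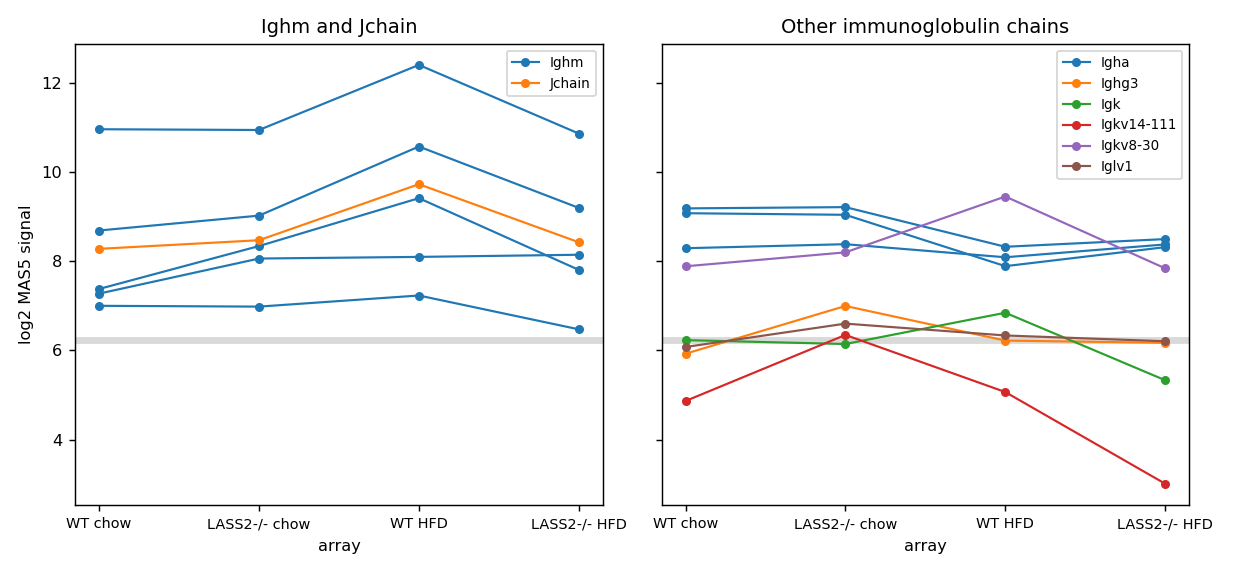
Log2 MAS5 signal on each array of the kept probe sets of Ighm and Jchain (left) and of the other immunoglobulin genes (right), 1 line per probe set as a guide to the eye; the grey band marks the array medians. Most Ighm lines, Jchain, Igkv8-30 and Igk peak on the WT HFD array, whereas the Igha lines are lower on the HFD arrays than on chow or nearly level.

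The other immunoglobulin chains, gathered by symbol after the values of Ighm had been seen and therefore not tested as a set, did not all share this order. Without Ighm, 8 probe sets of 6 symbols reached a median, and 2 of them were highest on WT HFD, 5 on LASS2-/- chow, 1 on WT chow and 0 on LASS2-/- HFD. Igkv14-111 entered through LASS2-/- chow alone (6.35), so the filter favoured that array as its highest. The brightest Igha probe set was nearly level on LASS2-/- chow and WT chow (9.22 and 9.19). Another Igha probe set was nearly level on LASS2-/- chow and LASS2-/- HFD (8.3836 and 8.3785). These counts are therefore a description. Igkv8-30, a kappa light chain variable segment, read 7.89, 8.20, 9.45 and 7.84, again high on WT HFD alone. Its WT diet ratio was 1.57 and its HFD genotype ratio -1.61. Igk, the kappa locus, read 6.23, 6.14, 6.85 and 5.33, near the medians. Igha, the heavy chain of IgA, went the other way with diet, at 9.19, 9.22, 8.33 and 8.50 in its brightest probe set. Igha fell with HFD by 0.79 ± 0.17 log2 (SE, limma adjusted p = 0.00785 over all genes). The call of Igha was lost on the average of its probe sets (limma adjusted p = 0.116). It was also lost without the trend in the moderation (0.322), where 0% of all genes passed. Its other probe sets read 9.08, 9.04, 7.89 and 8.32, and 8.29, 8.38, 8.09 and 8.38. Probes for immunoglobulin segments can bind near-identical copies, so the split of signal between these probe sets is uncertain.

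The plasma cell list, without Ighm and Jchain, held 17 genes, of which 11 entered. With genotype 0 rose (0.56% of all genes) and 0 fell (0.352%) in limma, and with diet 0 rose (6.26%) and 3 fell (5.04%). These were Igha, Xbp1 and Derl3. Xbp1, the secretory pathway regulator that hepatocytes also express, fell by 0.55 ± 0.08 log2 (limma adjusted p = 0.000268), and Derl3, of endoplasmic reticulum degradation, fell by 0.89 ± 0.18 (limma adjusted p = 0.00566). The median log2 ratios of the list were 0.02 for genotype on chow, 0.06 for genotype on HFD, -0.07 for diet in WT and -0.19 for diet in LASS2-/-, beside 0.03, 0.00, 0.02 and -0.01 for all genes. With arrays scaled to equal medians the first of these was -0.08, beside -0.07 for all genes. These medians mix unlike genes, as Xbp1, Pigr, Sdc1 and Ell2 had signals of 12.6 log2 or above on every array. The part of hepatocytes in those signals was not tested. Mzb1 read 7.69, 7.12, 7.98 and 7.64. Mzb1 and Ell2 were highest on WT HFD, as were Ighm and Jchain, and the other genes of the list were highest on other arrays. Of these, Irf4 entered through WT chow alone, so the filter favoured that array as its highest.

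Among the B cell receptor genes the signalling chains were dim. Cd79a (chr7:24897497-24901858), the receptor's alpha signalling chain, had 3.19, 3.25, 2.12 and 2.76 and did not reach a median on any array. Cd79b (chr11:106311341-106314562), its partner, had 6.16 on WT chow, 6.15 on LASS2-/- chow, 6.73 on WT HFD and 7.04 on LASS2-/- HFD. It entered only through the HFD arrays, so its diet ratios had to be above 0. They are bounds, at least 1.46-fold in WT and at least 1.69-fold in LASS2-/-. The genotype ratio of Cd79b on HFD was 0.31 log2, and on chow both arrays lay under the medians. Its mean effects were 0.15 ± 0.45 for genotype and 0.73 ± 0.45 for diet (limma adjusted p = 0.958 and 0.367).

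Blnk was high where Ighm was not. Blnk (chr19:40928927-40994221), the adaptor that couples the B cell receptor to phospholipase C, had 7.73 on WT chow, 8.36 on LASS2-/- chow, 8.18 on WT HFD and 9.62 on LASS2-/- HFD. The WT chow array was lowest and the LASS2-/- HFD array stood apart at the top. Blnk was 1.55-fold higher in LASS2-/- on chow and 2.72-fold higher on HFD, and HFD over chow was 1.36-fold in WT and 2.40-fold in LASS2-/-. Blnk rose with the genotype label by 1.04 ± 0.22 log2, 2.05-fold (limma adjusted p = 0.0388), and with HFD by 0.86 ± 0.22, 1.81-fold (limma adjusted p = 0.0204). The genotype call passed in 1 of 9 alternatives (limma adjusted p from 0.0324 to 0.742) and the diet call in 4 of 9 (from 0.0171 to 0.363). Without the trend in the moderation 0% of all genes passed for either effect. With averaged probe sets 0% passed for genotype. With floored values and with robust moderation the genotype call was lost too, while 0.488% and 0.328% of all genes rose. The residual SD of Blnk itself was 0.408 log2, against a moderated 0.217.

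Blnk is also expressed by macrophages. Of 12 Kupffer cell and macrophage markers, 12 entered, with the dimmest value at 7.06, and 11 were higher in LASS2-/- on chow, 12 of 12 on HFD, where 51.2% and 51.5% of all genes were higher. With HFD 4 of 12 were higher in WT and 10 of 12 in LASS2-/-, against 52.4% and 52.1% of all genes. The log2 of their summed signal was 14.54 on WT chow, 14.83 on LASS2-/- chow, 14.52 on WT HFD and 15.06 on LASS2-/- HFD. The part of these cells in the values of Blnk was not tested.

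The B cell list held 19 further genes, of which 16 had a named probe set, 9 entered and 7 did not reach a median. With genotype 1 rose (0.56% of all genes) and 0 fell (0.352%), and with diet 0 rose (6.26%) and 0 fell (5.04%). The gene that rose was Plcg2, the phospholipase C that Blnk binds. Plcg2 read 7.41, 8.35, 7.32 and 8.59, higher on both LASS2-/- arrays. Its mean genotype effect was 1.10 ± 0.23 log2 (limma adjusted p = 0.0392), which passed in 2 of 9 alternatives. Plcg2, too, is expressed in macrophages. Cd22, an inhibitory co-receptor of B cells, read 6.80, 6.65, 7.55 and 7.73, with the HFD arrays above the chow arrays. It did not pass for diet (limma adjusted p = 0.0815). Of the 9 genes, 7 were higher on HFD in WT and 7 in LASS2-/-, where 52.4% and 52.1% of all genes were. The counts of 7 used values without the floor. Blk entered through WT HFD alone and Spib through LASS2-/- HFD alone, so the filter favoured those arrays as their highest. In LASS2-/- Blk lay under the medians on both diets (2.40 on chow and 4.91 on HFD). The counts are therefore a description. The medians of the B cell list were 0.28 and 0.17 for genotype on chow and on HFD, and 0.36 and 0.20 for diet in WT and in LASS2-/-. The log2 summed signal of the list was 9.85, 10.17, 10.21 and 10.55 in the group order, highest on LASS2-/- HFD, where Plcg2 was the brightest of the list (8.59). The single genes were divided. Cd22, Cd72, Plcg2, Spib and Bank1 were highest on LASS2-/- HFD and Btk on LASS2-/- chow. Ms4a1, Blk and Syk were highest on WT HFD, as were Ighm and Jchain. Several of these values lay near the medians.

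Among the T cell genes Themis had the widest difference. Themis (chr10:28668360-28883820), a protein of T cell receptor signalling in thymocyte selection, had 6.80 on WT chow, 6.31 on LASS2-/- chow, 9.46 on WT HFD and 9.70 on LASS2-/- HFD in probe set 1436423_at. Both HFD arrays stood far above both chow arrays, in each genotype. It was 6.35-fold higher on HFD in WT, a ratio that 10 of all genes exceeded, and 10.5-fold higher in LASS2-/-, which 6 exceeded. Themis rose with HFD by 3.03 ± 0.24 log2, 8.16-fold (limma adjusted p = 1.55e-06). Its genotype ratios were -0.49 on chow and 0.24 on HFD, and the mean genotype effect was -0.12 ± 0.24 (limma adjusted p = 0.93).

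The other probe sets of Themis did not share that difference. Probe set 1439719_at read 4.95, 5.06, 5.49 and 5.97, and 1442022_at read 5.50, 3.27, 5.39 and 2.19, both under the medians throughout. Probe set 1443192_at read 5.17, 5.84, 5.52 and 6.23 and reached a median on LASS2-/- HFD only. The call of Themis therefore rests on 1 of 4 probe sets. With the mean of all probe sets it was lost (limma adjusted p = 0.382), as it was without the trend in the moderation (limma adjusted p = 0.322), and it passed in the other 7 of 9 alternatives. Without the trend 0% of all genes passed for diet.

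**Figure D3:**
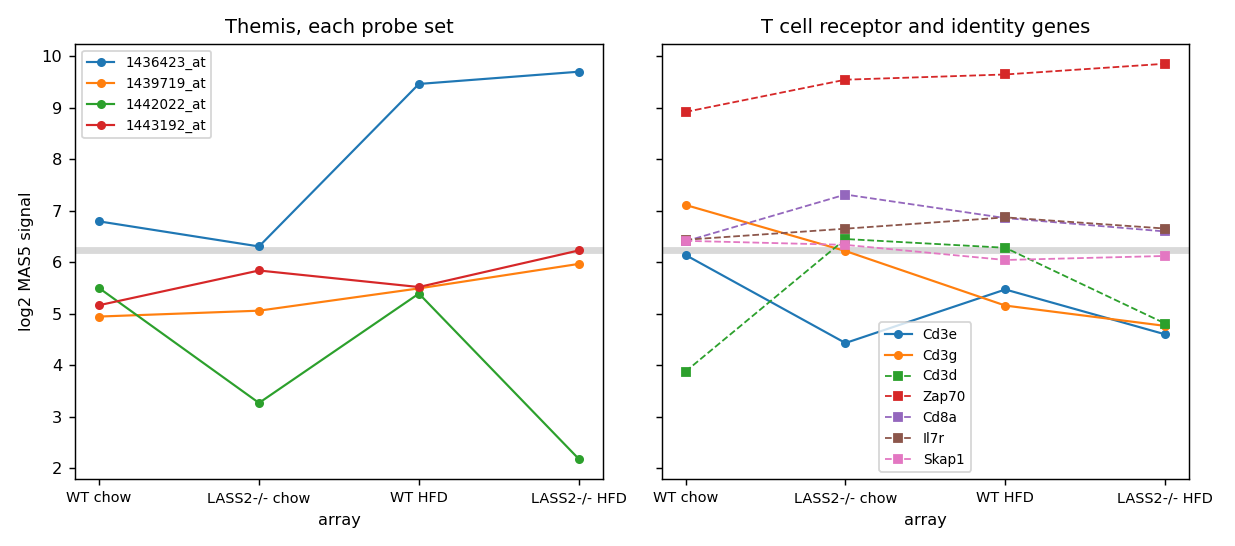
Log2 MAS5 signal on each array of the 4 probe sets of Themis (left) and of Cd3e, Cd3g and other T cell genes (right), with lines as a guide to the eye and a grey band for the array medians. Probe set 1436423_at is 9.46 and 9.70 on the HFD arrays against 6.80 and 6.31 on chow, and no gene on the right has a step of that size between the diets in both genotypes.

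The Cd3 chains, which carry the signal of the T cell receptor, were dim and did not share the order of Themis. Cd3e (chr9:44998735-45009663) had 6.14, 4.43, 5.47 and 4.60 and did not enter. Cd3g (chr9:44969572-44980431) had 7.11 on WT chow, 6.22 on LASS2-/- chow, 5.16 on WT HFD and 4.77 on LASS2-/- HFD. It entered through the WT chow array alone, so ratios against that array had to be below 0. They are bounds, at least 1.79-fold lower in LASS2-/- on chow and at least 1.90-fold lower on HFD in WT. Its mean diet effect, on values that lay mostly under the medians, was -1.70 ± 0.70 log2 (limma adjusted p = 0.146), and its genotype effect -0.64 ± 0.70 (limma adjusted p = 0.842). Cd3d, another chain of the complex, read 3.88, 6.45, 6.28 and 4.81, in another order again.

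Of 25 further T cell genes 19 had a named probe set and 8 entered. The 11 that did not reach a median were Cd247, Lat, Cd2, Cd5, Cd6, Cd4, Cd8b1, Lef1, Bcl11b, Ctla4 and Foxp3, several of them defining T cell genes. With genotype 0 rose (0.56% of all genes) and 0 fell (0.352%), and with diet 2 rose (6.26%) and 0 fell (5.04%). These were Zap70, the kinase that docks on the Cd3 chains, at 0.52 ± 0.15 log2 (limma adjusted p = 0.0458), and Ptpn6, a phosphatase found in most blood cells, at 0.99 ± 0.25 (limma adjusted p = 0.0206). They passed in 1 and 3 of 9 alternatives. On the average of all probe sets of the gene, the diet effect was 0.0075 log2 for Zap70 and 0.78 for Ptpn6. The rise of Zap70 thus rests on its brightest probe set. Cd8a, of the cytotoxic co-receptor, read 6.41, 7.32, 6.86 and 6.60, highest on LASS2-/- chow. The medians of the list were 0.16 and 0.01 for genotype on chow and on HFD, and 0.16 and -0.03 for diet in WT and LASS2-/-, the last of which was 0.05 with arrays scaled to equal medians and 0.03 after quantile normalization.

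The cytotoxic genes lay near the medians, and both were highest on the LASS2-/- chow array. Nkg7 (chr7:43437138-43438246), a granule membrane protein of natural killer and cytotoxic T cells, had 6.27 on WT chow, 6.88 on LASS2-/- chow, 5.97 on WT HFD and 5.70 on LASS2-/- HFD. It was 1.52-fold higher in LASS2-/- on chow, and on HFD both arrays were under the medians. With HFD it was at least 1.60-fold lower in LASS2-/-, while the WT ratio had a bound of -0.08 log2. Nkg7 entered through the chow arrays alone, so its diet ratios could hardly be above 0. Gzma (chr13:113093824-113100981), a granzyme protease, had 5.16, 6.99, 6.40 and 5.87 on these arrays. Gzma was at least 1.76-fold higher in LASS2-/- on chow and at least 1.15-fold lower on HFD. With HFD it was at least 1.17-fold higher in WT and at least 1.74-fold lower in LASS2-/-. Neither gene passed a test: the mean genotype effects were 0.17 ± 0.55 for Nkg7 and 0.65 ± 0.66 for Gzma (limma adjusted p = 0.962 and 0.83), and the mean diet effects -0.74 ± 0.55 and 0.05 ± 0.66 (limma adjusted p = 0.476 and 0.972).

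Of 20 further cytotoxic and natural killer genes 19 had a named probe set and 8 entered. With genotype 1 rose (0.56% of all genes) and 0 fell (0.352%), and with diet 0 rose (6.26%) and 0 fell (5.04%). The gene that rose was Ccl5, a chemokine of T cells and of other leukocytes, at 1.42 ± 0.19 log2 (limma adjusted p = 0.00267). Ccl5 passed in 7 of 9 alternatives. It was lost with averaged probe sets (limma adjusted p = 0.0755) and without the trend (0.742), where 0% of all genes passed for genotype. Gzmk, another granzyme, read 5.27, 7.52, 5.61 and 6.32 and did not pass for genotype (limma adjusted p = 0.379). The genes of the list had no common order. Gzmk, Prf1 and Klrk1 were highest on LASS2-/- chow, Klrd1, Serpinb9 and Ccl5 on LASS2-/- HFD, and Il2rb and Xcl1 on WT chow. Il2rb and Xcl1 entered through WT chow alone, so the filter favoured that array as their highest. Prf1, perforin, read 6.59, 7.20, 6.43 and 7.18, higher on both LASS2-/- arrays. The list's medians were 0.22 and 0.33 for genotype on chow and on HFD, and -0.03 and -0.05 for diet in WT and LASS2-/-, the last of which was 0.03 with equal medians and 0.00 after quantile normalization.

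**Figure D4:**
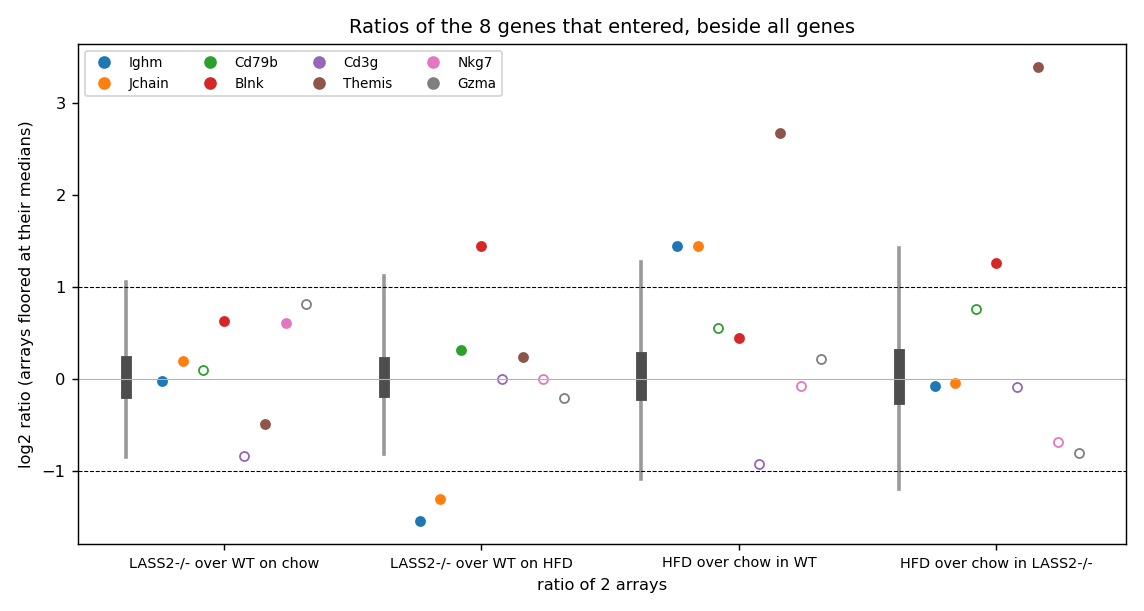
Floored log2 ratio of the 8 lymphocyte genes that entered, for the 4 comparisons of 2 arrays; open symbols have at least 1 array under its median, dashed lines mark 2-fold, and bars show all 12493 genes from percentile 1 to 99 (thin) and from 25 to 75 (thick). Ighm and Jchain lie at -1.54 and -1.30 for genotype on HFD and near 0 for diet in LASS2-/-, and Themis lies at 2.67 and 3.39 for diet.

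Counted over the 8 genes that entered, 0 were at least 2-fold apart between the genotypes on chow, where 1.16% of all genes were higher and 0.424% lower. On HFD 1 of 8 was higher in LASS2-/- (Blnk), against 1.47% of all genes, and 2 of 8 were lower (Ighm and Jchain), against 0.488%. HFD over chow in WT had 3 of 8 higher (Ighm, Jchain and Themis), against 2.13% of all genes, and 0 lower, against 1.24%. In LASS2-/- 2 of 8 were higher (Blnk and Themis), against 3.11%, and 0 lower, against 1.89%. In limma 1 of 8 rose with genotype (Blnk), against 0.56% of all genes, and 0 fell, against 0.352%. With diet 2 of 8 rose (Blnk and Themis), against 6.26% of all genes, and 0 fell, against 5.04%. At an unadjusted limma p under 0.05 stood 2 of 8 for genotype (Ighm and Blnk), beside 1294 of all 12493 genes, and 5 of 8 for diet (Ighm, Jchain, Blnk, Cd3g and Themis), beside 2971 of 12493. Cd79b, Cd3g, Nkg7 and Gzma entered through their high arrays, so these shares are a description. Median ratios of the 8 genes were 0.15, 0.00, 0.50 and -0.06, beside 0.03, 0.00, 0.02 and -0.01 for all genes, for genotype on chow and HFD and diet in WT and LASS2-/-.

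Genes shared by all white cells gave another order from that of Ighm and Jchain. Of 12 pan-leukocyte genes 12 entered, and 11 were higher in LASS2-/- on chow and 12 on HFD, while 9 were higher on HFD in WT and 11 in LASS2-/-. The shares of all genes were 51.2%, 51.5%, 52.4% and 52.1%. The chow count was 9 of 12, beside 37.5% of all genes, when the arrays were given equal medians. With genotype 0 rose (0.56% of all genes) and 0 fell (0.352%) in limma, and with diet 4 rose (6.26%) and 0 fell (5.04%). Those that rose were Ptprc, the CD45 phosphatase, at 0.51 ± 0.14 log2 (limma adjusted p = 0.0268), Laptm5 at 0.49 ± 0.14, Cd52 at 0.54 ± 0.13 and Itgb2 at 0.57 ± 0.16 (limma adjusted p = 0.0355, 0.0135 and 0.0355). Cd52 passed in 8 of 9 alternatives, Ptprc in 5 of 9, Itgb2 in 3 of 9 and Laptm5 in 3 of 8, and the last 3 were lost with quantile normalization and with equal medians. The log2 summed signal of the 12 genes was 12.58, 12.87, 12.86 and 13.36 in the group order, highest on LASS2-/- HFD, as was Blnk. The part of the number of white cells in the values of the 8 genes was not tested.

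**Figure D5:**
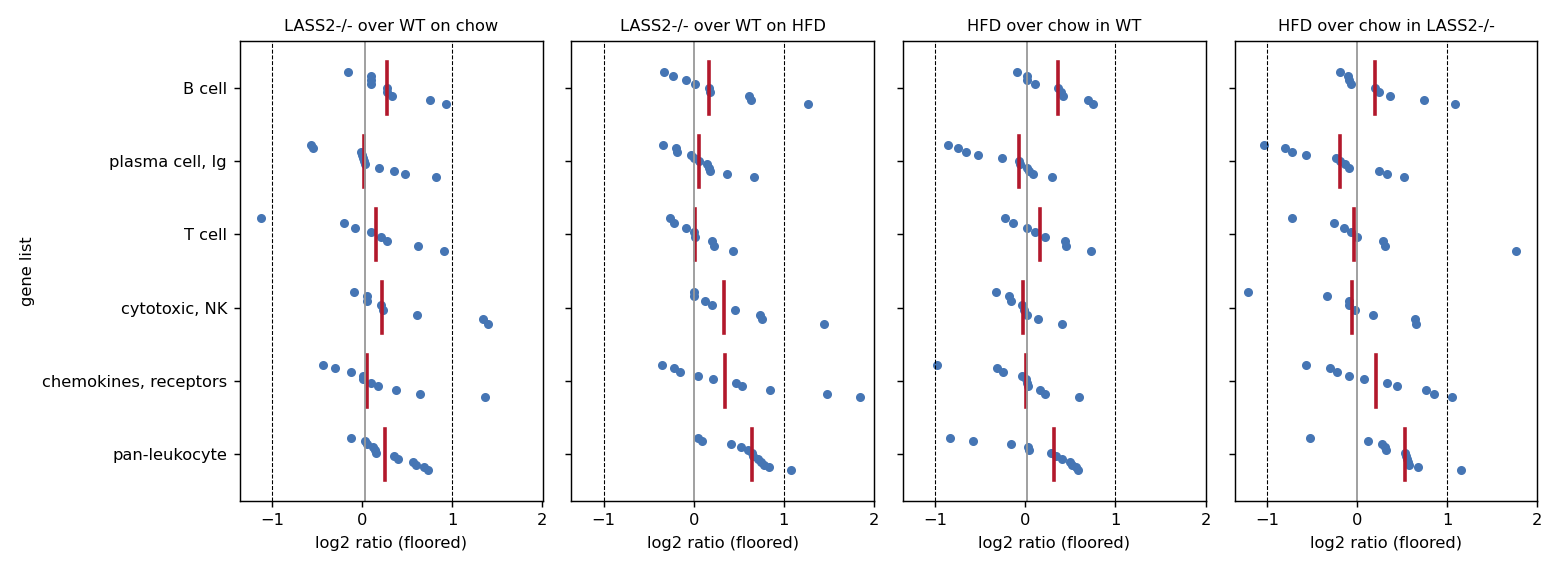
Floored log2 ratio of each gene of 6 lists (blue points) with the list's median (red bar), the median of all genes (grey line) and 2-fold (dashed lines), for the 4 comparisons of 2 arrays; the lists leave out the 10 genes themselves. The pan-leukocyte medians are 0.25 and 0.65 for genotype on chow and HFD and 0.32 and 0.53 for diet in WT and LASS2-/-, and the plasma cell medians lie between -0.19 and 0.06.

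Chemokines and receptors that direct lymphocytes were read beside these cells. Of 16 listed genes 12 had a named probe set and 10 entered. With genotype 1 rose (0.56% of all genes) and 0 fell (0.352%), while with diet 0 rose (6.26%) and 0 fell (5.04%). The gene that rose was Cxcl9, an interferon-induced attractant of activated T cells, at 1.11 ± 0.14 log2 (limma adjusted p = 0.0026). Its call passed in 7 of 9 alternatives. It was lost on the average of its 2 probe sets (limma adjusted p = 0.162) and without the trend (0.742), where 0% of all genes passed for genotype. Cxcl9 read 9.60, 10.97, 10.20 and 11.05, higher on both LASS2-/- arrays. The list's medians were 0.06 and 0.34 for genotype on chow and HFD, and 0.01 and 0.21 for diet in WT and LASS2-/-. With arrays scaled to equal medians the first was -0.05, beside -0.07 for all genes.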

How the data were processed

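The table deposited by the authors holds a log2 signal for each probe set on each array, computed with MAS5, the Affymetrix signal algorithm, per the submitters' processing notes. Its version and scaling target are not stated in the sources used here. The number of arrays limits the precision. Names came from the platform annotation, updated through Entrez numbers to a GRCm38.p6 gene table: 34945 probe sets had 1 symbol, 932 several (not used, 4 of them with one of the 10 genes) and 9160 none. Probe sets at or above the median of at least 1 array were kept, and the kept probe set with the highest mean represented its gene. For ratios, arrays were floored at their medians. A ratio with 1 array under the floor is a bound, and at least 2-fold counted as apart, with no test. Mean effects were tested with limma 3.58.1 (R 4.3.3; additive model, trended moderation, adjusted p under 0.05), checked on simulated data. Its SE borrows from other genes (12.7 prior against 1 residual degree of freedom). Tables and plots used Python 3.11.15 with pandas 2.3.3.

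The 10 genes and all lists were chosen with earlier results of these data known. All 10 are reported. Other list genes are named where they passed limma or stand beside one of the 10 for their role. A planned search of proteins for activation motifs was not done, as no protein sequences were used here. The alternatives were quantile normalization, arrays scaled to equal medians, 1.5-fold as the threshold, a lower floor (25th percentile), averaging all probe sets of a gene, dropping those whose ID ends in _x_at or _s_at, no filter, floored values, no trend, robust moderation and each probe set on its own.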

Additional observations from a re-analysis of the deposited data

Results flagged for a closer look

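In 3 genes a ratio had opposite signs in the 2 genotypes or on the 2 diets and differed between them by at least 2-fold, and none of these differences was tested. The log2 diet ratio of Ighm was 1.44 in WT and -0.08 in LASS2-/-, a difference of -1.52. The log2 genotype ratio of Jchain was 0.19 on chow and -1.30 on HFD, a difference of -1.50, and its diet ratio was 1.45 in WT and -0.05 in LASS2-/-, which differ by the same -1.50. Both genes were highest on the single WT HFD array. Their LASS2-/- diet ratios lie near 0 and turned positive with arrays scaled to equal medians (0.0046 for Ighm and 0.039 for Jchain), so the opposite sign is not a measured change in LASS2-/-. The floored genotype ratio of Gzma was 0.82 on chow and -0.20 on HFD, and its diet ratio 0.22 in WT and -0.80 in LASS2-/-, a difference of -1.02 in each case. These Gzma ratios are bounds, since its WT chow and LASS2-/- HFD values lie under the array medians. It entered through LASS2-/- chow and WT HFD alone, which fixed all 4 signs, so the pattern is a description of those arrays.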

How the results depend on the processing

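The count of genes at least 2-fold apart on HFD between the genotypes was 2 or 3 with every alternative run. The shares of all genes beside it did not stay level. They were 1.47% higher and 0.488% lower in the main setting. With the floor at the 25th percentile they were 4.68% and 4.65%, and with a 1.5-fold threshold 5.73% and 3.32%. On chow the count was 0, but 2 with the floor at the 25th percentile and 4 with a 1.5-fold threshold. For diet in WT it was 3, but 1 with the mean of all probe sets, 5 with the lower floor and 4 with 1.5-fold. For diet in LASS2-/- it was 2, but 1 with the mean of all probe sets, 5 with the lower floor and 5 with 1.5-fold. The shares of all genes grew as well. With the lower floor 6.84% were higher and 3.75% lower for genotype on chow. They were 5.97% and 5.03% for diet in WT, and 5.69% and 7.81% for diet in LASS2-/-. With 1.5-fold the same shares were 5.68% and 3.35%, 7.71% and 5.11%, and 10.1% and 7.20%. The limma genotype count of 1 (Blnk) was 0 with quantile normalization, equal medians, the mean of all probe sets, no filter, floored values, no trend, robust moderation and each probe set on its own. The limma diet count of 2 was 1 with quantile normalization, equal medians and no filter, and 0 when probe sets were averaged and with no trend. The shares of all genes mostly fell too, but not always to near 0. For genotype 0.488% rose and 0.368% fell with floored values, beside 0.56% and 0.352% in the main setting. With robust moderation 0.328% rose and 0.304% fell. Blnk was lost in both. For genotype 0.104% rose and 0.072% fell with quantile normalization, and 0% passed with averaged probe sets or with no trend. For diet 4.72% rose and 3.90% fell with quantile normalization, 2.13% and 1.94% with averaged probe sets, and 0% passed with no trend. The losses with no trend are thus those of every gene. Without probe sets ending in _x_at or _s_at the mean diet effect of Ighm passed, at 1.03 log2 (limma adjusted p = 0.0198, range over its alternatives 0.0198 to 0.843). Signs turned for the LASS2-/- diet ratio of Themis on the average of its probe sets (-0.084, which comes from the floors alone, since both averages lie under them), the genotype effect of Ighm with the mean of all probe sets (0.12, limma adjusted p = 0.974), the diet effect of Gzma with floored values (-0.29, limma adjusted p = 0.563) and that of Ptprc with the mean of all probe sets (-0.73, limma adjusted p = 0.307). Smaller ratios turned too: on averaged probe sets those of genotype for Themis (0.10 on chow, -0.27 on HFD) and Ighm (0.34 on chow; 0.33 without _x_at and _s_at, 0.0015 after quantile normalization), for diet in LASS2-/- those of Ighm (0.17 without _x_at and _s_at; 0.0046 with equal medians) and Jchain (0.039 with equal medians), and with the lower floor those of genotype for Cd79b on chow (-0.011) and for Cd3g and Nkg7 on HFD (-0.39 and -0.27). The cause was not tested. Of 251 limma values of single genes, 188 kept direction and side of the threshold, 59 were no longer past it and 1 newly passed, and 179 of 192 ratios stayed near their main value. Equal medians moved the all-gene median from 0.03 to -0.07 for genotype on chow and from -0.01 to 0.08 for diet in LASS2-/-. No paired analysis was possible because each group has 1 array. Signals under the array medians have no reliable order, which limits Cd79a, Cd79b, Cd3e, Cd3g, Nkg7 and Gzma.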

Other observations

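Cxcl13, the chemokine that draws B cells into follicles, had log2 signals of 8.56 on WT chow, 8.57 on LASS2-/- chow, 7.58 on WT HFD and 9.43 on LASS2-/- HFD. Its lowest value was thus on the array where Ighm and Jchain were highest, and its highest on the array where Blnk was highest. Its genotype ratios were 0.01 on chow and 1.85 on HFD, and its diet ratios -0.99 in WT and 0.85 in LASS2-/-. Cxcl10, another interferon-induced T cell attractant, read 7.40, 8.04, 7.62 and 9.09, also highest on LASS2-/- HFD. Neither gene passed the limma test, and both were picked from the chemokine list after their values were seen.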
